A study of Mus musculus with 18 samples.

Results

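The genes described here are *Acod1*, which makes the itaconate-producing enzyme, the receptor genes *Gpr84* and *Clec4e*, and 7 cytokine genes of inflammation, *Tnf*, *Il1b*, *Il1a*, *Il1rn*, *Il6*, *Il10* and *Il18*. They were taken by symbol, 10 of the 31053 genes counted in BM-derived macrophages, and 8 of them passed the filter on low counts (12290 genes in all). They were picked with their changes under LDL loading already known, so these changes, and the calls counted among them, are a description and no independent evidence. The cells came from 12-week-old C57Bl/6J mice, 3 with a LysM-Cre deletion of *Slc7a7* (Slc7a7-/-, knockout) and 3 Slc7a7+/+ controls (wild type), and whether the wild type mice also carried Cre is not given in the sources used here. *Slc7a7* encodes a subunit of an amino acid transporter, and LysM-Cre is Cre expressed from the lysozyme gene *Lyz2* of myeloid cells. The macrophages of each mouse were grown with macrophage colony-stimulating factor or L-cell conditioned medium and were kept for 24 h with vehicle (control), 50 µg/mL acetylated LDL (Ac-LDL) or 100 µg/mL oxidized LDL (Ox-LDL). The 18 libraries thus form 6 groups of 3, with every mouse in each medium, and the LDL forms differed in dose.

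Macrophages switch on *Acod1* (also called *Irg1*) when microbial products or interferons reach them. Its enzyme sits in mitochondria and decarboxylates cis-aconitate, an intermediate of the TCA cycle, to itaconate, which inhibits succinate dehydrogenase and dampens the production of some cytokines. *Tnf*, *Il1b*, *Il1a* and *Il6* encode the classical pro-inflammatory cytokines, *Il18* a cytokine that is released like IL-1β through the inflammasome, *Il1rn* the antagonist of the IL-1 receptor, and *Il10* a cytokine that restrains macrophages. *Gpr84* encodes a receptor for medium-chain fatty acids and *Clec4e* encodes Mincle, a C-type lectin receptor for glycolipids of microbes and dying cells. Both are known to be induced in activated macrophages.

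The promoters of 3 of the 4 genes that moved with LDL are shown because they share an element at the same place. Each line is the 100 bases just before the RefSeq start site (GRCm38.p6), written 5′ to 3′ on the strand of the gene, and the capitals mark TATAAA, the core of the TATA box. That of *Acod1* is chr14:103046912-103047011 on the plus strand, that of *Tnf* chr17:35202008-35202107 on the minus strand and that of *Clec4e* chr6:123289872-123289971 on the minus strand.
Acod1: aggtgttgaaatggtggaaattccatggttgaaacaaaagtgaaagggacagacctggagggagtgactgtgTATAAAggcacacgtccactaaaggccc
Tnf: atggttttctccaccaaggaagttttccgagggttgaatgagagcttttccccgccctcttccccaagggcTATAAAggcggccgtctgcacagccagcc
Clec4e: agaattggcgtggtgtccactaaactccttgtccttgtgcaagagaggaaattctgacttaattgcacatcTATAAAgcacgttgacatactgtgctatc

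TATAAA began 28 bases before the start of *Acod1* and 29 bases before those of *Tnf* and *Clec4e*. Of the 9 members with a RefSeq promoter window (250 bases before to 50 after the start), 5 held TATAAA on the gene's strand between positions −35 and −20, the others being *Il1b* and *Il1a*, against 1.75% of all 32851 windows. *Gpr84*, *Il1rn*, *Il6* and *Il18* held none there. In the GENCODE annotation *Acod1* starts 35 bases upstream of its RefSeq start, so that the element lies inside the first exon there, and *Gpr84* starts 174 bases upstream. On both strands, the 7-base AP-1 motif TGANTCA was in the windows of *Il1a*, *Il1rn* and *Il6* (7.81% of all windows) and the NF-kB consensus in that of *Il6* (8.46%). These are matches of letters, and no match says only that the letters are not in the window.

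The libraries held 1043492 to 1768816 counts each, so that 3 counts, taken as the floor of detection, were worth 1.67 to 2.85 CPM (counts scaled to library size, with TMM factors). *Slc7a7* was at 11.1, 12.6 and 21.1 CPM in wild type control libraries against 10.3, 4.33 and 5.16 CPM in knockout ones, at 23.6 to 28.5 against 2.22 to 5.22 CPM with Ac-LDL and at 25.9 to 29.3 against 8.67 to 10.9 CPM with Ox-LDL. The genotypes did not overlap in any medium, but the knockout control library of replicate 1 nearly met the wild type ones, and by edgeR the difference passed with Ac-LDL only (adjusted p = 0.00047, against 1 with control and 0.276 with Ox-LDL). Exons of *Oxa1l* lie opposite those of *Slc7a7*. The 8 macrophage markers were at 12531 to 35758 CPM in sum in every library, lower in knockout cells. The highest of them was *Lyz2*, from which LysM-Cre is expressed, at 7526 to 30462 CPM, followed by *Csf1r* at 1312 to 3000 CPM. Of the other marker lists, 8 neutrophil genes were at 25.5 to 252 CPM in sum, with *Retnlg* at 0 in all 18 libraries and *Elane* in 13, and 4 monocyte genes at 123.1 to 244.3 CPM. The sums were at most 5.20 CPM for 6 dendritic cell genes, 1.24 for 6 lymphoid, 1.79 for 4 erythroid, 3.37 for 4 mast cell and basophil and 26.9 for 4 stromal genes. In bulk samples, fewer cells that express a gene and less of its RNA per cell cannot be told apart.

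*Acod1* (ENSMUSG00000022126, chromosome 14, 103046977 to 103056573, GRCm38) fell most. Wild type control libraries held 41.8, 85.2 and 96.2 CPM, those with Ac-LDL 15.2, 19.9 and 6.80 CPM and those with Ox-LDL 4.48, 1.85 and 3.26 CPM. Knockout control libraries held 91.0, 57.6 and 69.6 CPM, those with Ac-LDL 12.6, 7.77 and 6.38 CPM and those with Ox-LDL 3.37, 4.79 and 2.89 CPM. The 3 media did not overlap in either genotype. The mean went from 74.4 ± 28.8 CPM (SD, n = 3) in wild type control cells to 13.98 ± 6.66 CPM with Ac-LDL, which was 81.2% lower, and to 3.20 ± 1.32 CPM with Ox-LDL, 95.7% lower. In knockout cells it went from 72.7 ± 16.95 CPM to 8.92 ± 3.27 CPM (87.7% lower) and 3.68 ± 0.988 CPM (94.9% lower). The fitted log2 fold changes were −2.44 (standard error 0.32) and −4.58 (0.41) in wild type cells and −3.06 (0.33) and −4.28 (0.39) in knockout cells, for Ac-LDL and Ox-LDL in turn. What was left with Ox-LDL amounted to 3 to 7 counts a library, close to the floor.

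Between the LDL forms, the Ox-LDL libraries of *Acod1* lay below the Ac-LDL libraries in both genotypes, by −2.14 on the log2 scale (standard error 0.52) in wild type cells and −1.22 (0.53) in knockout cells. The doses differed (50 and 100 µg/mL), so that the form of LDL and its dose cannot be told apart. Of the members, 0 of 8 tested passed an adjusted p of 0.05 in this comparison by edgeR's quasi-likelihood test. The share of all genes that passed was 0.00814% in wild type and 0.0651% in knockout cells. DESeq2, a fit without a filter on low counts and a fit with the mouse as a replicate block each called *Acod1* lower with Ox-LDL in wild type cells and called no member in knockout cells. Of all genes, 0.0488% and 0.0895% were lower with Ox-LDL by DESeq2 and 0.358% and 0.871% with the block, in wild type and knockout cells, and 0.162% were in wild type cells without a filter. *Acod1* and *Gpr84* were lower without overlap in both genotypes, against 4.37% and 7.13% of all genes with more than 3 counts in a library compared. For *Gpr84* in wild type cells this separation lay near the floor. Its highest Ox-LDL library had 4 counts (2.61 CPM) and its lowest Ac-LDL library 3 counts (2.85 CPM), so that only scaling to library size set them apart.

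*Gpr84* (ENSMUSG00000063234, chromosome 15, 103308235 to 103310612) was the next steepest. Its wild type libraries held 18.6, 16.1 and 15.3 CPM with control, 2.85, 6.65 and 4.76 CPM with Ac-LDL and 1.79, 1.85 and 2.61 CPM with Ox-LDL. Its knockout libraries held 16.9, 27.2 and 16.1 CPM with control, 5.52, 4.998 and 4.64 CPM with Ac-LDL and 3.37, 0 and 2.89 CPM with Ox-LDL, where the library at 0 allows up to 2.05 CPM. No LDL library reached any control library of its genotype. The fitted log2 fold changes were −1.75 (standard error 0.42) with Ac-LDL and −2.93 (0.48) with Ox-LDL in wild type cells and −1.98 (0.38) and −3.23 (0.46) in knockout cells. The Ox-LDL values rest on 9 counts in each genotype. The GENCODE annotation places exons of *Gm49482* opposite those of *Gpr84*, and *Gm49482* is not among the genes counted. Of the 31-base words of *Gpr84* transcripts, 38.5% are shared on either strand with other genes' transcripts, which can include those of *Gm49482*. The library kit marks strand, but the strand setting of the counting is not given in the sources used here.

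*Clec4e* (ENSMUSG00000030142, chromosome 6, 123281789 to 123289870) was the most abundant member and the most precisely measured. Wild type control libraries held 163, 208 and 243 CPM, against 64.5, 103 and 76.2 CPM with Ac-LDL and 61.8, 81.5 and 68.5 CPM with Ox-LDL. Knockout control libraries held 324, 195 and 195 CPM, against 103, 85.5 and 74.2 CPM with Ac-LDL and 85.9, 52.0 and 63.0 CPM with Ox-LDL. Every LDL library lay below every control library, while Ac-LDL and Ox-LDL libraries overlapped in both genotypes. The log2 fold changes were −1.33 (standard error 0.22) with Ac-LDL and −1.53 (0.22) with Ox-LDL in wild type cells, and −1.45 (0.21) and −1.84 (0.22) in knockout cells.

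*Tnf* (ENSMUSG00000024401, chromosome 17, 35199381 to 35202007) was the only classical pro-inflammatory cytokine gene of the set with a level well above the floor in every library. Wild type libraries held 52.9, 44.0 and 31.3 CPM with control, 19.9, 25.9 and 11.6 CPM with Ac-LDL and 30.5, 20.4 and 17.6 CPM with Ox-LDL. Knockout libraries held 47.0, 44.0 and 41.9 CPM with control, 15.8, 23.9 and 24.9 CPM with Ac-LDL and 8.42, 9.58 and 19.7 CPM with Ox-LDL. In both genotypes the control libraries stood above all LDL libraries, by the narrowest margin in wild type cells with Ox-LDL, where the highest of 30.5 CPM nearly met the lowest control of 31.3 CPM. The log2 fold changes were −1.16 (standard error 0.30) and −0.92 (0.29) in wild type cells with Ac-LDL and Ox-LDL, and −1.02 (0.28) and −1.76 (0.30) in knockout cells.

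**Figure D1:**
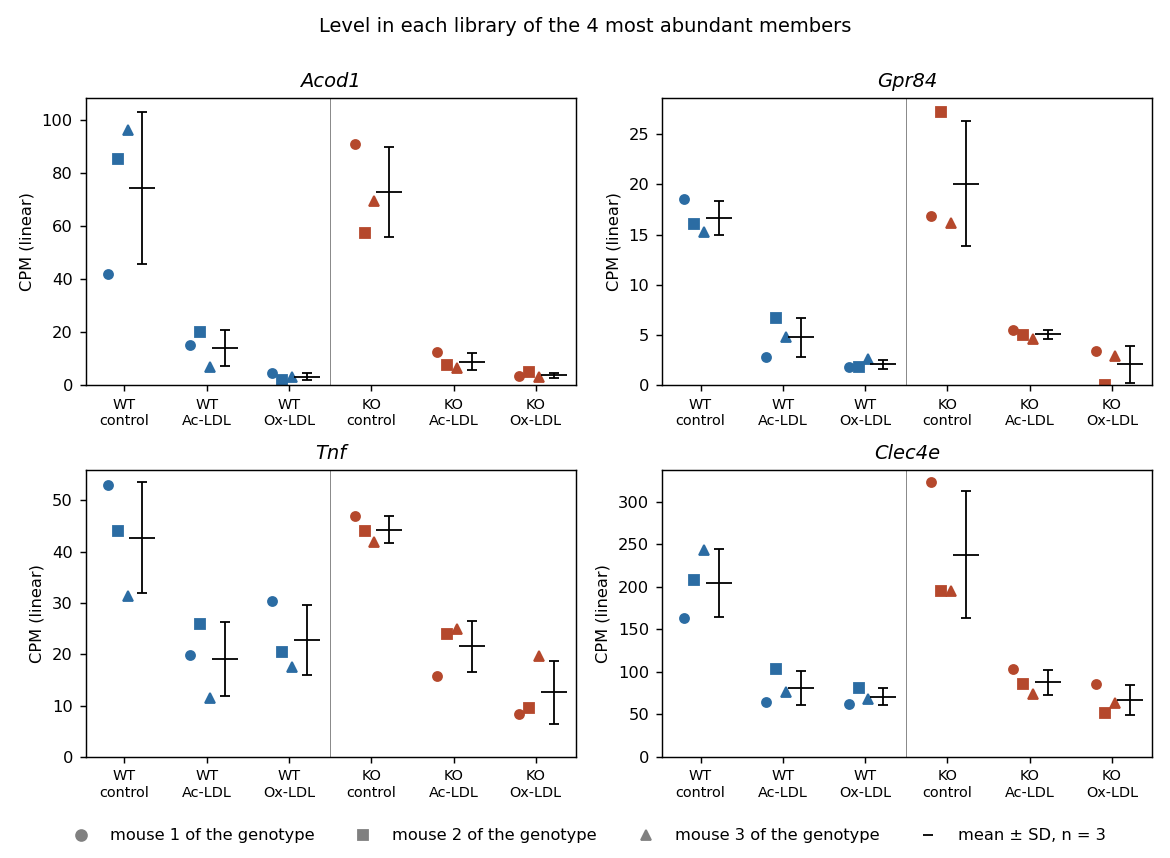
CPM (linear axes from 0) of Acod1, Gpr84, Tnf and Clec4e in each of the 18 libraries, by genotype and medium, with symbols for the mouse and black bars for the mean ± SD of 3 libraries. In each panel and genotype the control libraries lie above all LDL libraries, and Acod1 with Ox-LDL is at 1.85 to 4.79 CPM.

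A member was counted as fallen where its adjusted p was under 0.05 in edgeR's quasi-likelihood test over all 12290 genes. In wild type cells with Ac-LDL these were *Acod1* and *Clec4e*, 2 of 8 tested members, where 0.407% of all genes fell. With Ox-LDL they were *Acod1*, *Gpr84* and *Clec4e*, against 1.07% of all genes. In knockout cells the same 3 fell with Ac-LDL (0.448% of all genes), and *Tnf* fell besides them with Ox-LDL (1.66%). None of the 8 rose in the 4 comparisons, where 0.0651%, 0.277%, 0.0732% and 0.659% of all genes did, in the same order. Without overlap between the libraries of LDL and control, 4, 5, 4 and 5 members were lower, and 5.54%, 6.18%, 9.58% and 12.1% of all genes, leaving out genes with at most 3 counts in every library compared. The fifth was *Il1rn* in wild type and *Il18* in knockout cells. With the mouse as a replicate block, *Acod1*, *Gpr84*, *Clec4e* and *Tnf* fell in all 4 comparisons, while the share of all genes that fell became 1.43% and 2.86% in wild type and 1.7% and 4.82% in knockout cells, for Ac-LDL and Ox-LDL in turn. Nothing is read from these shares, since the members were chosen on these comparisons. The call of *Gpr84* in knockout cells with Ac-LDL was lost without knockout control replicate 2 and without knockout Ac-LDL replicates 2 or 3, and *Gpr84* passed in wild type cells with Ac-LDL without knockout Ox-LDL replicate 2.

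**Figure D2:**
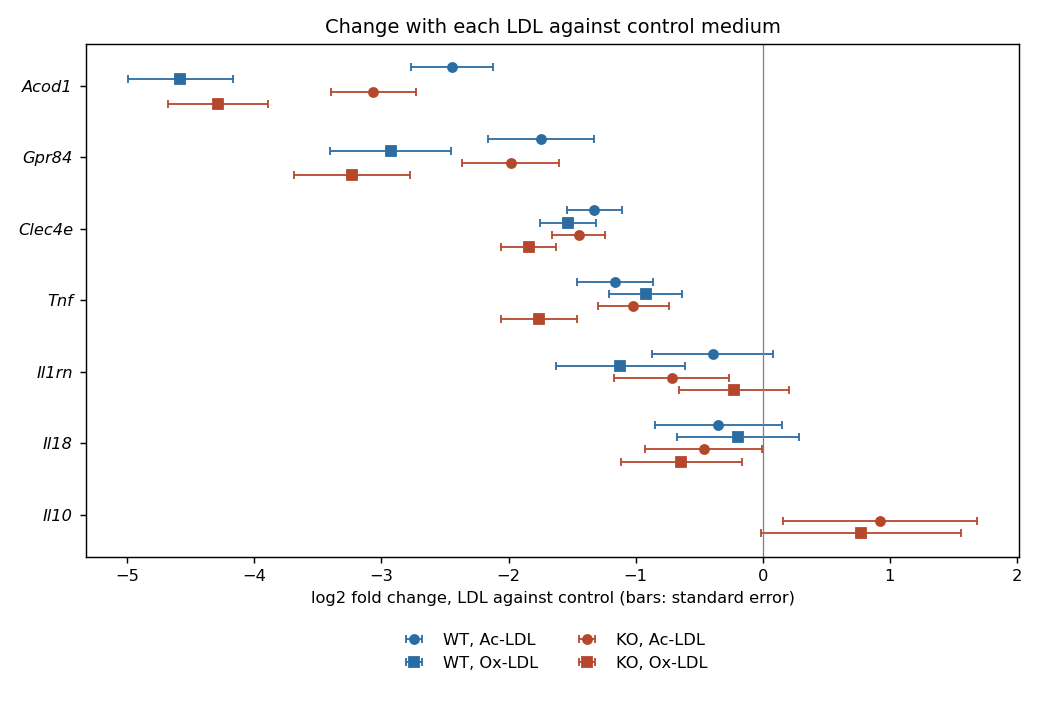
Fitted log2 fold change with Ac-LDL (circles) or Ox-LDL (squares) against control in wild type (blue) and knockout (red) cells, with bars for 1 standard error. Acod1 lies furthest to the left, at −2.44 to −4.58, and Il10 is drawn for knockout cells only, since both wild type groups compared were at or under 3 counts in every library.

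All 6 mice showed the same direction for *Acod1*, *Gpr84*, *Clec4e* and *Tnf*. Within mice, *Acod1* was lower in 6 of 6 mice with either LDL, by −1.38 to −3.58 in log2 CPM with Ac-LDL and by −2.88 to −4.74 with Ox-LDL. *Gpr84* changed by −1.12 to −2.24 and by −1.94 to −4.37, *Clec4e* by −0.998 to −1.65 and by −1.34 to −1.90, and *Tnf* by −0.72 to −1.50 and by −0.77 to −2.30, each lower in 6 of 6 mice. *Acod1* varied most between wild type mice with Ac-LDL, at −1.38, −2.02 and −3.58 for replicates 1, 2 and 3.

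**Figure D3:**
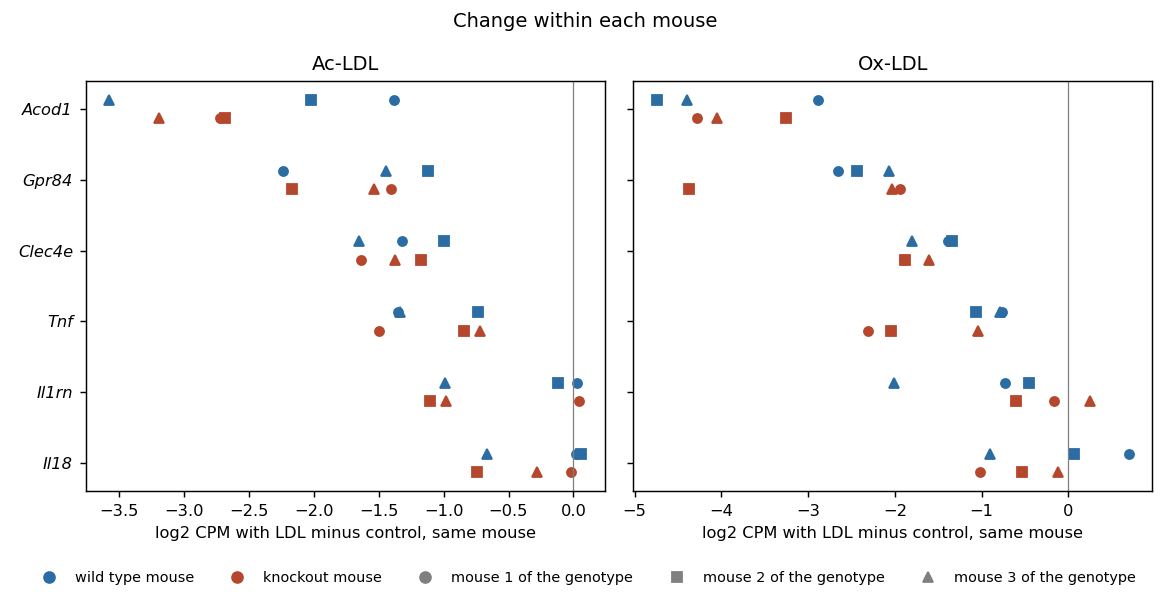
Change in log2 CPM from control to Ac-LDL (left) or Ox-LDL (right) within each of the 6 mice, for 6 members. All points of Acod1, Gpr84, Clec4e and Tnf lie left of 0, and those of Il1rn and Il18 lie on both sides.

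Macrophage markers summed to 24648 to 35171, 25738 to 35758 and 21085 to 30179 CPM in wild type cells with control, Ac-LDL and Ox-LDL, and to 17545 to 20928, 14952 to 17488 and 12531 to 14468 CPM in knockout cells. In knockout cells the sums were thus lower with each LDL without overlap, while in wild type cells they overlapped. With Ac-LDL the separation in knockout cells was narrow, at most 17488 against at least 17545 CPM. *Acod1* was lower with each LDL without overlap in both genotypes. Much of these sums was *Lyz2*, with a median of 15440 CPM over the libraries against 21007 CPM for the sum. Sums without *Lyz2* are not given, so that these do not measure the share of macrophages. Neutrophils also express *Clec4e* and cytokine genes. In wild type cells their markers summed to 72.9 to 126 CPM with control, 78.9 to 216 CPM with Ac-LDL and 142 to 252 CPM with Ox-LDL. In knockout cells the sums were 52.0 to 141, 25.5 to 64.6 and 62.9 to 114 CPM. Monocyte markers summed to 186 to 214, 172 to 221 and 151 to 237 CPM in wild type cells and to 161 to 183, 144 to 244 and 123.1 to 189 CPM in knockout cells. The part of these cell types in the changes with LDL was not tested.

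The other members were near the floor, and are given as counts. *Il1rn* (chromosome 2, 24336853 to 24351494) had 9, 14 and 13 counts in wild type control libraries, 9, 12 and 6 counts with Ac-LDL and 5, 11 and 2 counts with Ox-LDL. In knockout libraries it had 19, 18 and 11, then 15, 8 and 5, then 12, 10 and 15 counts. It was not called in any LDL comparison, with log2 fold changes of −0.39 (standard error 0.48) and −1.12 (0.51) in wild type and −0.72 (0.45) and −0.22 (0.43) in knockout cells for Ac-LDL and Ox-LDL. Only in wild type cells with Ox-LDL did its CPM not overlap with control, where 6.18% of all genes were lower without overlap.

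*Il18* (chromosome 9, 50554827 to 50581840) had 2 to 10 counts in each library. Its group means ran from 3.05 to 4.97 CPM, and its log2 fold changes with LDL were −0.35 (standard error 0.50) and −0.19 (0.48) in wild type and −0.47 (0.46) and −0.64 (0.48) in knockout cells, none called. *Il1b* (chromosome 2, 129364570 to 129371139) had 23 counts in all 18 libraries together and never more than 3 in one, so that no fold change is given. Its counts were 4, 5 and 1 over the 3 wild type libraries with control, Ac-LDL and Ox-LDL, and 7, 5 and 1 over the knockout libraries. *Il1a* and *Il6* had 7 and 6 counts in all and were not tested. Of the *Il1a* counts, 4 came from the wild type Ac-LDL library of replicate 2. A 0 in these libraries allows up to 3 counts, so that their absence is not shown.

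*Il10* (chromosome 1, 131019845 to 131024974) had 1, 3 and 3 counts in wild type control libraries, 1, 1 and 0 counts with Ac-LDL and 1, 1 and 3 counts with Ox-LDL. In knockout libraries it had 3, 5 and 2 counts with control, 0, 13 and 7 counts with Ac-LDL and 1, 9 and 6 counts with Ox-LDL. With either LDL, the knockout mice of replicates 2 and 3 stood above every wild type library, and that of replicate 1 did not. Against control, the knockout log2 fold changes were 0.92 (standard error 0.76) and 0.77 (0.79), neither called.

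**Figure D4:**
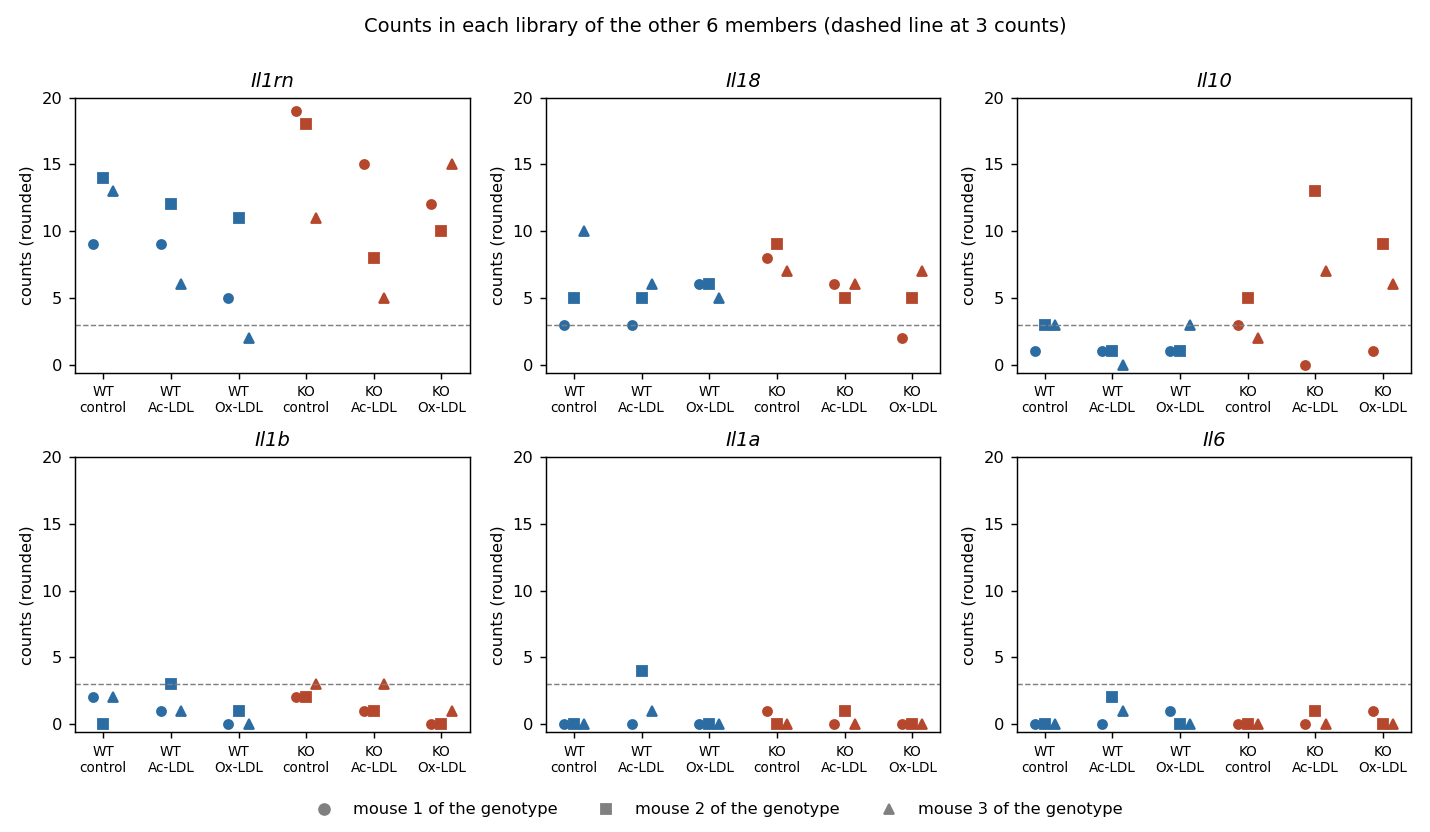
Rounded counts (linear axes, the same in each panel) of Il1rn, Il18, Il10, Il1b, Il1a and Il6 in each library by genotype and medium, with a dashed line at 3 counts. Il1b lies at or under the line in every library, and Il10 rises above 5 counts only in knockout mice 2 and 3 with LDL.

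The comparison of the genotypes asks whether loss of *Slc7a7* changed these genes. In control medium the values of both genotypes overlapped for every member, and the log2 differences, knockout against wild type, were −0.05 for *Acod1* (95% interval −0.58 to 0.49), 0.28 for *Gpr84* (−0.41 to 0.96), 0.21 for *Clec4e* (−0.20 to 0.63) and 0.06 for *Tnf* (−0.48 to 0.61). None of the 8 members tested passed the threshold in any medium by edgeR or DESeq2. The shares of all genes that passed by edgeR were 0.00814%, 0.0163% and 0.00814% with control, Ac-LDL and Ox-LDL. By the same test 0, 1 and 1 members had an unadjusted p under 0.05, where a share of 0.05 of tests would lie with no difference. With Ac-LDL, *Acod1* differed by −0.67 (−1.53 to 0.20, unadjusted p = 0.124, adjusted p = 0.990), and under Ox-LDL by 0.25 (−1.12 to 1.62, adjusted p = 0.986). For *Gpr84* and *Clec4e* the differences with LDL were 0.04 and 0.09 for acetylated and −0.03 and −0.10 for oxidized LDL. The intervals for *Clec4e*, −0.38 to 0.56 and −0.58 to 0.38, were the narrowest.

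*Tnf* with Ox-LDL and *Il10* with Ac-LDL were the members with an unadjusted p under 0.05. *Tnf* was at 12.6 ± 6.18 CPM in knockout and 22.8 ± 6.77 CPM in wild type cells with Ox-LDL, a log2 difference of −0.78 (95% interval −1.46 to −0.09, unadjusted p = 0.0278, adjusted p = 0.933). The groups overlapped, since the knockout library of replicate 3 (19.7 CPM) exceeded the wild type library of replicate 3 (17.6 CPM). Over the alternatives its value ran from −1.29 to −0.53, with an adjusted p of 0.403 or more.

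*Il10* was at 3.76 ± 3.62 CPM in knockout and 0.563 ± 0.498 CPM in wild type cells with Ac-LDL, from 20 and 2 counts. The fitted log2 difference was 2.75 (0.63 to 4.88, unadjusted p = 0.0133, adjusted p = 0.990). The ratio of the counts per library size was 8.09 (exact 95% interval 1.96 to 71.4, counting error only). With Ox-LDL the fitted log2 difference was 1.55 (−0.29 to 3.39, unadjusted p = 0.0942, adjusted p = 0.933), with a ratio of 3.12 (1.09 to 10.9, counting error only) from 16 and 5 counts. Both ratio intervals leave out the spread between mice, and knockout replicate 1 held 0 counts with Ac-LDL and 1 with Ox-LDL. Averaged over the media within each mouse, log2 CPM of *Il10* differed by 0.67. An exact permutation test of 3 against 3 mice gave p = 0.4, where 0.1 is the smallest possible. Without knockout Ac-LDL replicate 2, the difference with Ac-LDL went to 1.94. *Il1rn* with Ox-LDL lay higher in all 3 knockout libraries (10.1, 6.84 and 8.67 CPM) than in the wild type ones (4.48, 6.79 and 1.30 CPM), a difference of 0.996 (−0.05 to 2.05, adjusted p = 0.933), where 4.56% of all genes were higher without overlap.

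**Figure D5:**
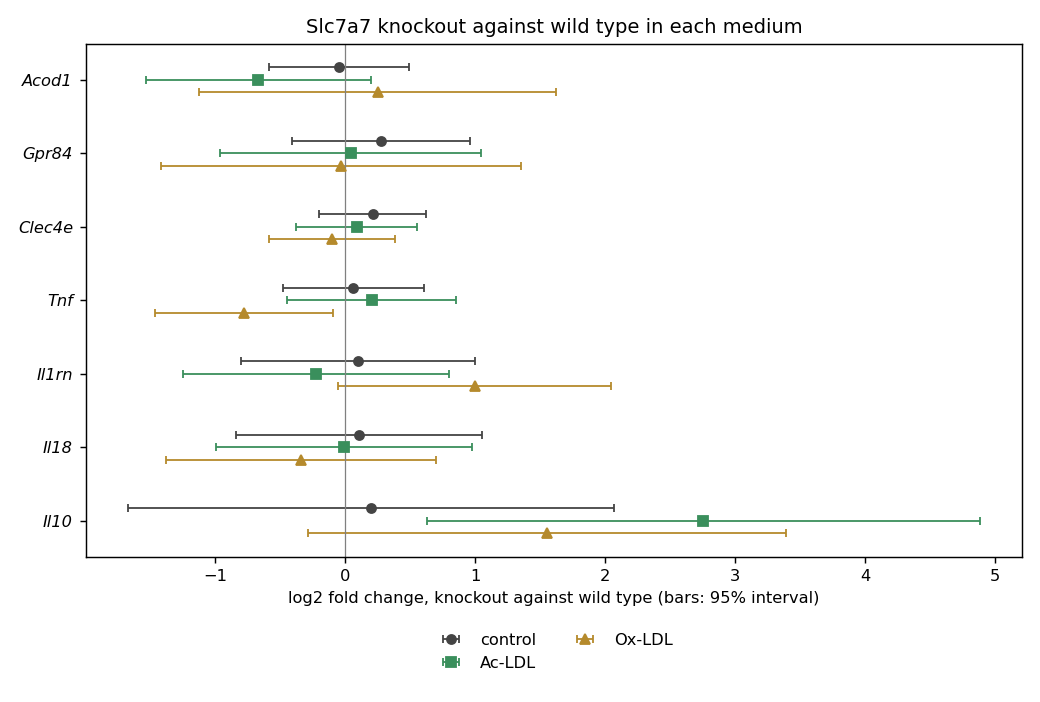
Fitted log2 fold change, knockout against wild type, of 7 members with control (circles), Ac-LDL (squares) and Ox-LDL (triangles), with bars for the 95% interval. Most bars cross 0, and the exceptions, Tnf with Ox-LDL at −0.78 and Il10 with Ac-LDL at 2.75, had adjusted p of 0.933 and 0.990.

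The response to LDL was compared between the genotypes as an interaction. By edgeR and by DESeq2, 0 of the 8 members passed for either LDL, as did 0% of all genes by edgeR, and 0 members had an unadjusted p under 0.05. For *Acod1* the response to Ac-LDL differed by −0.62 (95% interval −1.64 to 0.40) and that to Ox-LDL by 0.30 (−1.18 to 1.77). For *Tnf* the response to Ox-LDL differed by −0.84 (−1.71 to 0.03, unadjusted p = 0.0588, not passing after adjustment), and for *Clec4e* by −0.31 (−0.95 to 0.32).

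Levels between genes were compared as CPM per kilobase of annotated exons, over all transcripts of a gene. The order thus depends on annotated length, such as 5535 bases for *Il1rn* and 1031 for *Il18*, and the transcripts in use were not determined. By CPM alone, *Il1rn* (9.20) stood above *Il18* (4.52) in wild type control cells. In wild type control cells the order was *Clec4e* (41.2 ± 8.01), *Acod1* (28.4 ± 10.97), *Tnf* (26.1 ± 6.61), *Gpr84* (9.65 ± 0.990) and *Il18* (4.39 ± 2.35), followed by *Il1rn* (1.66 ± 0.135), *Il10* (1.33 ± 0.535) and *Il1b* (0.579 ± 0.513), with *Il1a* and *Il6* at 0. *Acod1* overlapped with its neighbours *Clec4e* and *Tnf*, and *Il1rn*, *Il10* and *Il1b* each with the next. With Ox-LDL, *Clec4e* (14.2 ± 2.01) and *Tnf* (13.9 ± 4.13) led and overlapped, *Il18* (3.99 ± 1.08) came next, and *Acod1* (1.22 ± 0.501) was at the level of *Gpr84* (1.21 ± 0.264). In knockout cells the order of the first 5 was the same with control, and with Ox-LDL *Acod1* (1.40 ± 0.377) came sixth, overlapping with *Il1rn* and *Gpr84*.

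The 5 genes whose log2 CPM went most closely with *Acod1* over the 18 libraries, of 9830 genes with at least 5 CPM on average, were *Sdc1* (Pearson's r 0.955, Spearman's rho 0.940), *Sod2* (0.951 and 0.893), *Sqle* (0.946 and 0.920), *Hmgcs1* (0.945 and 0.899) and *Fgr* (0.944 and 0.953). *Sdc1* encodes the heparan sulfate proteoglycan syndecan-1, *Sod2* the superoxide dismutase of mitochondria, *Sqle* and *Hmgcs1* enzymes of cholesterol synthesis and *Fgr* a Src-family kinase. Of the members, *Clec4e* was 21st (0.919), *Gpr84* 50th (0.881), *Tnf* 199th (0.757) and *Il1rn* 712th (0.521). The libraries share mice and media, and control libraries stood apart from LDL libraries in *Acod1*. Over the 12 LDL libraries alone, r was 0.807 for *Sdc1*, 0.706 for *Sod2*, 0.635 for *Sqle*, 0.628 for *Hmgcs1* and 0.822 for *Fgr*, and 0.429, 0.523 and 0.231 for *Clec4e*, *Gpr84* and *Tnf*.

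Of 109 other genes tested from the pathways around the members, 1 fell with Ac-LDL and 6 with Ox-LDL in wild type cells, 2 and 8 did so in knockout cells, and 0 rose. The background of genes that fell was 0.407%, 1.07%, 0.448% and 1.66% of all genes. In the other 7 comparisons 0 of these genes passed by edgeR. Between 1 and 8 of 109 had an unadjusted p under 0.05, where a share of 0.05 of tests would lie with no difference. Nothing is read from these counts. Among 24 genes of the TCA cycle and its citrate branch, *Acly*, which splits citrate in the cytosol, fell in all 4 comparisons, from 149 ± 2.77 CPM to 98.8 ± 8.77 CPM and 92.4 ± 11.5 CPM in wild type cells and from 140 ± 6.51 CPM to 95.2 ± 7.59 CPM and 91.9 ± 9.30 CPM in knockout cells. *Slc25a1*, the mitochondrial citrate carrier, fell in wild type cells with Ox-LDL, from 45.6 ± 9.98 CPM to 20.2 ± 11.4 CPM. Its log2 fold change was −1.23 there and −1.02, not called, in knockout cells with Ox-LDL. The median log2 fold change of the list was −0.11, −0.07, −0.10 and −0.23 in the order above, against −0.0030, 0.0079, −0.0046 and 0.0044 for all genes tested. No gene of the cycle proper, such as those for aconitase or succinate dehydrogenase, passed.

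Of 16 genes for the release, receptors and signalling of TNF, *Birc3*, *Adam17* and *Traf1* fell in wild type cells with Ox-LDL, *Birc3* in knockout cells with Ac-LDL, and these 3 and *Tnfrsf1b* in knockout cells with Ox-LDL. *Adam17*, the protease that sheds TNF from the cell surface, went from 439 ± 107 CPM to 239 ± 52.6 CPM in wild type and from 521 ± 28.5 CPM to 256 ± 8.61 CPM in knockout cells with Ox-LDL. Exons of *Iah1* lie opposite it. *Birc3*, which encodes an inhibitor of apoptosis in the TNF receptor complex, went from 106 ± 17.2 CPM to 51.6 ± 10.4 CPM and from 111 ± 5.48 CPM to 48.0 ± 4.22 CPM, and the adaptor gene *Traf1* from 41.5 ± 20.6 CPM to 13.8 ± 5.75 CPM and from 47.0 ± 3.80 CPM to 16.3 ± 5.83 CPM. *Tnfrsf1b*, the gene of TNF receptor 2, went from 454 ± 23.7 CPM to 296 ± 29.5 CPM in knockout cells. Its log2 fold change with Ox-LDL was −0.62 there and −0.48, not called, in wild type cells. With Ac-LDL, *Birc3* changed by −0.90 in knockout cells and by −0.74, not called, in wild type cells. The median log2 fold change of the list was −0.24, −0.34, −0.35 and −0.39.

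Of 14 inflammasome genes, *Casp4* (25.9 ± 7.34 to 12.4 ± 1.39 CPM), a sensor of lipopolysaccharide, and *Gsdmd* (77.1 ± 1.56 to 43.3 ± 11.4 CPM), the pore through which IL-1β leaves, fell in knockout cells with Ox-LDL. Their log2 fold changes were −1.05 and −0.82 there, and −0.81 and −0.36, not called, in wild type cells with Ox-LDL. Of 15 genes of IL-1 and IL-18 receptors and signalling, *Irak2* fell in wild type cells with Ox-LDL, from 55.8 ± 4.03 CPM to 34.0 ± 2.67 CPM, with exons of *Gm43963* on the opposite strand. Its log2 fold change was −0.71 there and −0.24, not called, in knockout cells with Ox-LDL. Of 9 genes around Mincle, *Malt1*, a protease of its signalling complex, fell in knockout cells with Ox-LDL, from 86.8 ± 4.44 CPM to 57.9 ± 1.16 CPM. Its log2 fold change was −0.58 there and −0.52, not called, in wild type cells with Ox-LDL. Of 12 genes of IL-6 and IL-10 signalling, 14 other secreted cytokines, 4 receptors for metabolites and 1 other IL-1 family ligand, 0 passed in any of the comparisons.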

How the data were processed

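Libraries were made from total RNA with a stranded SMARTer kit and sequenced single-end. Per the study's methods and the labels, the authors trimmed the reads in the nf-core pipeline, aligned them to mm10 with STAR and deposited Salmon's estimated counts per gene (Ensembl release 93), not normalized. Estimated counts were rounded, since 5.85% to 8.10% of values in a library were not whole. The p-values of the main fit reflect a spread within groups, estimated over all 18 libraries together. These were treated as independent, although each mouse gave a library in every medium.

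Genes were kept by edgeR's filterByExpr at a minimum count of 2 and 10 counts over all libraries (12290 genes). The minimum of 2, scaled to library size, had to be reached in as many libraries as a group holds, not in each library. edgeR 4.0.16 (R 4.3.3) fitted 6 group means over all 18 libraries by quasi-likelihood, with TMM scaling, and p-values were adjusted by Benjamini-Hochberg over all genes tested (threshold 0.05). CPM are TMM-scaled, and log2 CPM within mice used a prior count of 2. Standard errors of log2 fold changes were worked back from the test, as the size of the change over the square root of its F statistic. Intervals are 95% intervals from these standard errors and a t quantile, and need not match the p-values exactly. Alternatives were DESeq2 1.42.0, library-size scaling, edgeR's default filter and none, fits of only the libraries compared, a replicate block and leaving out each library. The block was the mouse for comparisons of media and for the interactions. For knockout against wild type it was the replicate number, which pairs different mice. The animal number in the column names ties the libraries of a mouse together. Their deviations from the group means correlated at 0.055 to 0.293 (18 pairs), against −0.017 to 0.039 for equal replicate numbers of the other genotype. The members and all gene lists were chosen with earlier results of these data known. Named genes are the members, *Slc7a7*, the list genes that passed, and the 5 genes most like *Acod1*. Promoters are from RefSeq, and positions and overlaps from GENCODE vM21.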

Additional observations from a re-analysis of the deposited data

How the results depend on the processing

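In wild type cells with Ac-LDL, 2 members passed the threshold, against 4 without a filter on low counts and 4 with the replicate block, which each added *Gpr84* and *Tnf*, while the share of all genes that fell went from 0.407% to 0.523% and 1.43%. In wild type cells with Ox-LDL against Ac-LDL 0 passed, against 1 (*Acod1*) with DESeq2, without a filter and with the replicate block. In the fits that left out 1 library each, 2 to 3 members passed with Ac-LDL in each genotype. With Ox-LDL the number was always 3 (wild type) and 4 (knockout), and it was 0 in the other 7 comparisons. The share of all genes called in either direction moved in these fits too. In wild type cells with Ac-LDL it ran from 0.309% to 1%. With Ox-LDL it was 2% without wild type control replicate 1 and 0.74% without wild type control replicate 2. Nothing is read from these counts. The call of *Gpr84* in knockout cells with Ac-LDL was lost without knockout control replicate 2 and without knockout Ac-LDL replicates 2 and 3. *Tnf*, not called by the main fit there, passed in 2 of 24 alternatives in wild type cells with Ox-LDL. In knockout cells with Ac-LDL it passed in 3 of 24, the replicate block being among them in both cases. Called member results did not change sign in any alternative run, and 33 of the 88 results, all uncalled, did in at least 1. Beyond these and the blocked calls given above, the block changed no call of a member. At 3 counts per 1.67 to 2.85 CPM, the depth limits *Il1b*, *Il1a*, *Il6* and *Il10*, and what is left of *Acod1* and *Gpr84* with Ox-LDL.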
